A study of Mus musculus with 14 samples.

Results

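Tigit, Cd96, Cd226 and Crtam are receptors of lymphocytes for cell surface proteins of the nectin and nectin-like family, and Pvr and Nectin2 are members of that family. These 6 genes were chosen by name, 6 of the 13230 genes that the deposited count tables list between them. The 4 receptors were followed over 3 groups of natural killer (NK) cells, and the 2 ligands in stromal cells of the same tumour model. All cells came from 8-week-old BALB/c female mice. Healthy mice gave spleen NK cells (3 libraries). Mice that had received 100000 4T1-GFP cells, a GFP-marked mammary carcinoma line, in the mammary fat pad gave spleen NK cells (4 libraries), NK cells from the tumour (4 libraries) and tumour stromal cells labelled sCAF, sorted as PDPN-negative cancer-associated fibroblasts (3 libraries). The tumours were a transplanted line, so each tumour sample came from that 1 line, and whether a tumour and a spleen of equal replicate number came from the same mouse is not given in the sources used here. NK cells were sorted as CD45+, NKp46+ and negative for GFP, EPCAM, CD3, CD31 and CD14. The sCAF sort left out cells that carried PDPN, CD45, CD31, GFP or EPCAM. Tumours were digested for 20 min at 37 °C with collagenase (3 mg/ml) and DNase (70 unit/ml), for both NK cells and sCAFs. For the spleens a red cell lysis of 5 min is given and no digestion. Between tumour and spleen libraries, tissue and handling therefore cannot be told apart. A purpose of the series was to compare NK cells inside the tumour with NK cells outside it, and to list genes by which the stromal cells could act on them.

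The family works as a set of receptors that compete for shared ligands. CD226 (DNAM-1) is an activating receptor of NK and T cells that binds PVR (CD155) and NECTIN2 (CD112). TIGIT binds the same ligands and carries inhibitory tyrosine motifs in its tail, and mouse CD96 binds PVR and also contributes to adhesion and restraint of NK cells. CRTAM, a receptor of activated NK and CD8 T cells, has the nectin-like protein CADM1 as its ligand, so it belongs to the same family without sharing PVR and NECTIN2. PVR and NECTIN2 are often present on carcinoma and stromal cells.

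On the GRCm38 (mm10) assembly with the GENCODE M21 annotation, Tigit (ENSMUSG00000071552.5) lay at chr16:43648867-43664146 and Cd96 (ENSMUSG00000022657.9) at chr16:46035657-46120251, both on the minus strand. They were 2370 kb apart, with 33 protein-coding genes between them. Crtam (ENSMUSG00000032021.14) lay at chr9:40969691-41004628 on the minus strand. The ligand genes were closer to each other: Nectin2 (ENSMUSG00000062300.14) at chr7:19716644-19750483 and Pvr (ENSMUSG00000040511.14) at chr7:19903578-19921160, both on the minus strand, with 153 kb and 6 protein-coding genes between them. An annotated antisense gene overlaps each of the 2 ligand genes, and a processed pseudogene overlaps Pvr as well. Neither table lists these overlapping genes, and the strand setting of the counting is not given in the sources used here, so reads from an antisense partner could not be told apart from reads of the ligand gene.

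The RefSeq promoter table (GRCm38.p6) matched 3 of the 6 genes, Tigit, Cd96 and Nectin2. The 250 bases before the RefSeq start are shown for Tigit and Cd96, the receptors on chromosome 16 whose mean levels were highest and called higher in the tumour NK libraries against both spleen groups. They are read on the minus strand, 5′ to 3′, the first from chr16:43664185-43664434 and the second from chr16:46120249-46120498, and capitals mark matches to the motifs named below. The Cd96 window overlaps 1 annotated exon and the Tigit window 0. The GENCODE gene end of Cd96, at 46120251, lies inside the Cd96 window, so that window is not wholly upstream in both annotations.
Tigit: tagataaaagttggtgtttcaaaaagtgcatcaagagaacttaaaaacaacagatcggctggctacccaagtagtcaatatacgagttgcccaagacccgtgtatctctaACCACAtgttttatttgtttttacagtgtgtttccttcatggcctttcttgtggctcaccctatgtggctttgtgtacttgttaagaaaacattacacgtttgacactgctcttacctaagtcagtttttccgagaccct
Cd96: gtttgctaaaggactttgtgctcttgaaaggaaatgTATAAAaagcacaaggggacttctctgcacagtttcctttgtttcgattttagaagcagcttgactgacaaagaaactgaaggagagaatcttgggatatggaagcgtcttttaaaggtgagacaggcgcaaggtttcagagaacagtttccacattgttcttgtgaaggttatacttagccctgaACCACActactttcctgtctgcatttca
Both windows hold 1 match to TGTGGT, the core letters of RUNX sites, on the reverse strand as ACCACA. The same letters occur in 14.2% of the 27025 promoter windows of the table. The Cd96 window also holds 1 match to TATAAA, which occurs in 13% of them. No match on either strand was found in these windows for TGANTCA (6.87% of promoters), TGACGTCA (1.62%), GGGCGG (32.9%), CCAAT (34.5%) or GGAAGT (20%). The motifs were picked from general knowledge after the values were seen, none of them overlaps another in these windows, and a match describes letters only.

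The NK libraries held 559688 to 1966963 counts and the sCAF libraries 1318067 to 2230475, so a count of 0 in an NK library allows a level of up to 1.53 to 5.36 CPM (counts scaled to library size), for counting error only. All 12 NK marker genes searched were listed in the NK table, with summed levels of 21300 to 24800 CPM in tumour NK libraries against 29400 to 32900 CPM in the spleens. The largest part was Gzma, at 11100 to 14300 CPM against 16700 to 19300 CPM. Gzmb was higher in the tumour, at 1750 to 2150 CPM against 357 to 1240 CPM. In the edgeR test described below, 1 of the 12 was called higher and 7 lower against tumour-bearing spleens, beside 15.8% and 13.2% of all genes. Against healthy spleens 2 were higher and 4 lower, beside 16.5% and 14%. Of the T cell list, 5 of 15 genes were listed, and Cd3e, Cd8a and Trac were not. The listed genes summed to 215 to 289 CPM in the tumour and 272 to 354 CPM in the spleens. Lat was the largest part, at 106 to 141 CPM against 168 to 265 CPM. Cd28 went the other way, at 21.3 to 68 CPM against 5.07 to 16.1 CPM. Cd3d, at 29.6 to 58.7 CPM, and Cd3g, at 20.1 to 44.9 CPM, overlapped the spleens (23.2 to 100 and 25 to 52.9 CPM). Cd4 was at most 3.94 CPM in any group. Genes that mark type 1 and other helper innate lymphoid cells (9 of 12 listed) summed to 717 to 861 CPM in the tumour, against 239 to 348 CPM in healthy and 209 to 338 CPM in tumour-bearing spleens. A large part came from Tmem176a and Tmem176b, at 104 to 152 and 196 to 296 CPM in the tumour. These 2 genes are not particular to such cells here, with 326 to 436 and 1030 to 1330 CPM in sCAF libraries. Gata3 overlapped, at 131 to 147 CPM in the tumour and 117 to 163 CPM in the spleens. Neutrophil genes (3 of 6 listed) summed to 55.5 to 153 CPM in the tumour and at most 11.9 CPM in the spleens. Epithelial genes (2 of 9 listed, Epcam and Cdh1) summed to 25 to 51 CPM in the tumour and at most 3.57 CPM in the spleens. The spleen libraries fell on 2 sides in the table as a whole, with healthy replicate 1 and tumour-bearing replicates 1 and 2 on one side and the other 4 spleens on the other. The libraries are bulk RNA, so a change in the share of a cell type and a change in RNA per cell cannot be told apart.

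Tigit was higher in tumour NK libraries than in both spleen groups, and higher in spleens of tumour-bearing mice than in healthy spleens. Its level was 6.16, 4.28 and 2.48 CPM in the healthy spleens. In the spleens of tumour-bearing mice it was 22.1, 17.9, 25.2 and 26.8 CPM, and in the tumour 63.1, 62.3, 42.1 and 55.1 CPM (replicates 1 to 3 or 1 to 4, CPM on TMM-scaled library sizes). The 3 groups did not overlap: each library of a group lay above all libraries of the group before it, in the order healthy spleen, tumour-bearing spleen, tumour.

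Mean levels of Tigit were 4.31 ± 1.84 (SD, n = 3), 22.99 ± 3.93 (SD, n = 4) and 55.7 ± 9.74 (SD, n = 4) CPM in that order. Tumour NK cells had 2.39-fold more Tigit than NK cells of tumour-bearing spleens (log2 fold change 1.26, SE 0.205, adjusted p = 0.000102, edgeR quasi-likelihood test with Benjamini-Hochberg adjustment over 8471 genes). Against healthy spleens the difference was 13.3-fold (log2 3.74, SE 0.314, edgeR adjusted p = 3.16e-08). Tumour-bearing spleens exceeded healthy ones 5.57-fold (log2 2.48, SE 0.333, edgeR adjusted p = 0.00032).

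The healthy values for Tigit rest on 4, 8 and 3 counts, 15 in all, so the size of each fold against that group is loosely known. From summed counts on library totals, the ratio of tumour-bearing to healthy spleen was 5.45 with a 95% counting interval of 3.2 to 9.99, and that of tumour to healthy spleen 11.7 with an interval of 6.95 to 21.2. The 95% interval of the fitted log2 fold change between tumour and tumour-bearing spleen was 0.831 to 1.69. When the test was set against a minimum of 2-fold instead of no change, that comparison no longer passed (edgeR adjusted p = 0.479).

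**Figure D1:**
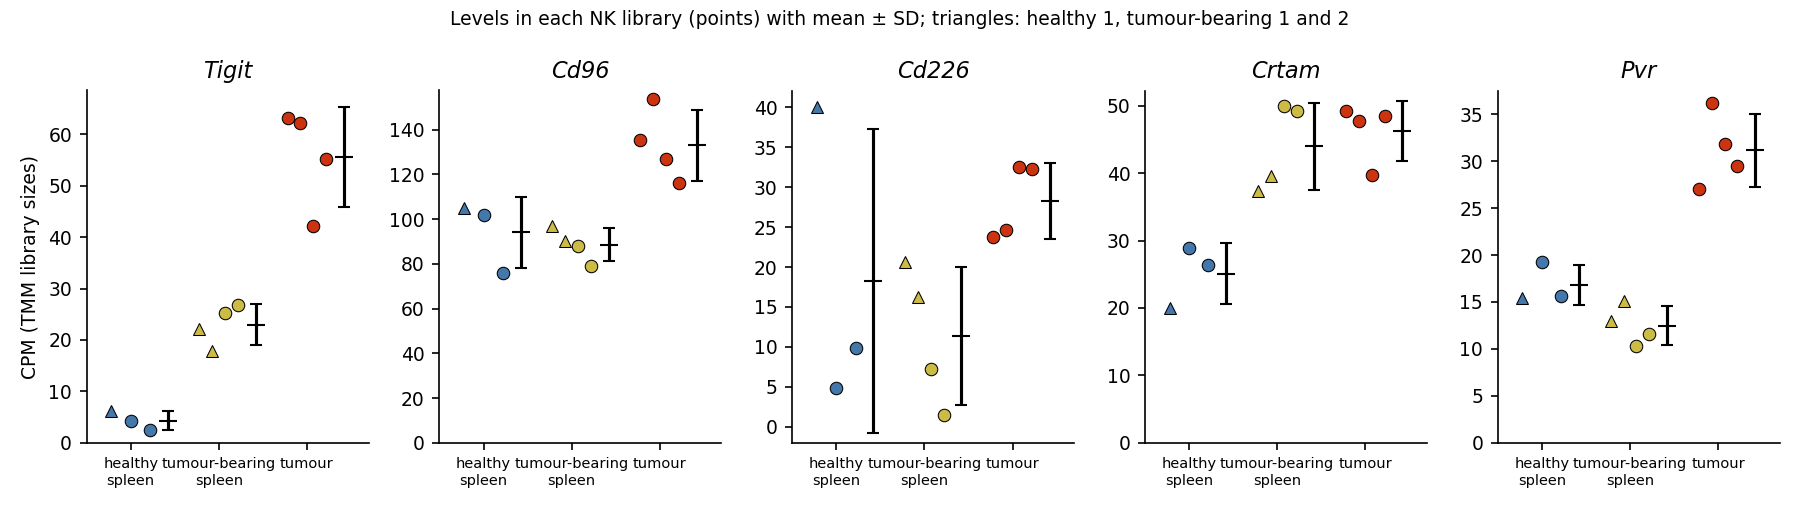
Level of Tigit, Cd96, Cd226, Crtam and Pvr in CPM (vertical axis, linear) in each NK library, as points for healthy spleen, tumour-bearing spleen and tumour, with the mean ± SD beside each group; triangles are healthy replicate 1 and tumour-bearing replicates 1 and 2. Tigit stands at 3 separate levels (means 4.31, 22.99 and 55.7 CPM), Cd96 stands apart in the tumour alone, Crtam is low in healthy spleens alone, and the Cd226 spleen points run from 1.45 to 40.1 CPM with the triangles on top in both spleen groups.

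Cd96 was higher in the tumour than in either spleen group, and the spleen groups overlapped. The healthy spleens had 105, 102 and 75.9 CPM. Spleens of tumour-bearing mice had 96.8, 90.4, 88.0 and 78.8 CPM, and tumour NK libraries 135, 154, 127 and 116 CPM. The lowest tumour library was above the highest spleen library.

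Means were 94.1 ± 15.8 (SD, n = 3), 88.5 ± 7.45 (SD, n = 4) and 133 ± 15.9 (SD, n = 4) CPM for Cd96 in healthy spleen, tumour-bearing spleen and tumour. The tumour exceeded tumour-bearing spleens 1.49-fold (log2 0.58, SE 0.14, edgeR adjusted p = 0.00405) and healthy spleens 1.41-fold (log2 0.50, SE 0.156, edgeR adjusted p = 0.0208). Tumour-bearing against healthy spleens gave a log2 difference of -0.08, with a 95% interval of -0.406 to 0.241 (edgeR adjusted p = 0.919). The call against healthy spleens was lost with library totals as the only scaling (log2 0.29, adjusted p = 0.2) and without healthy replicate 3 (log2 0.36, adjusted p = 0.141) or tumour replicate 2 (log2 0.43, adjusted p = 0.0569). Against tumour-bearing replicates 1 and 2 alone the adjusted p of the first comparison was 0.057 (log2 0.50).

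Cd226, the activating member, varied more among the spleens of a group than between group means. Healthy spleens had 40.1, 4.82 and 9.90 CPM. Tumour-bearing spleens had 20.6, 16.2, 7.21 and 1.45 CPM, and tumour NK libraries 23.8, 24.6, 32.5 and 32.3 CPM. All 4 tumour libraries were above all 4 tumour-bearing spleens, but healthy replicate 1 was above every tumour library.

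The SD of Cd226 in healthy spleens, 19.1 CPM, was as large as the mean of 18.3 CPM (n = 3), and the means in tumour-bearing spleens and tumour were 11.4 ± 8.64 (SD, n = 4) and 28.3 ± 4.74 (SD, n = 4) CPM. No comparison passed the test. The log2 difference was 1.34 for tumour against tumour-bearing spleen (SE 0.65, 95% interval -0.117 to 2.79, edgeR adjusted p = 0.158) and 0.96 for tumour against healthy spleen (interval -0.687 to 2.61, edgeR adjusted p = 0.363). Between the spleen groups it was -0.38 (interval -2.13 to 1.38, edgeR adjusted p = 0.931).

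The high spleen values of Cd226 were those of healthy replicate 1 and tumour-bearing replicates 1 and 2, the libraries on 1 side of the split. That side exceeded the other by 2.21 on the log2 scale within groups, a larger difference than in 99.5% of the genes tested. For the other receptors the same difference was -0.283 (Tigit), 0.179 (Cd96) and -0.378 (Crtam). Set against tumour-bearing replicates 3 and 4 alone the tumour exceeded the spleens by log2 2.55 in Cd226 (edgeR adjusted p = 0.0412), and against replicates 1 and 2 alone by 0.65 (adjusted p = 0.505). Without healthy replicate 1 the difference from healthy spleens was 2.01 (edgeR adjusted p = 0.0249), while against that library alone it was -0.47, a value from an arm of 1 library. The spleens kept for both calls were those with the lower Cd226 values. The larger differences follow from that choice, so these calls are not separate support. Among all tested genes with a value, the side difference ran against the GC content of the last 300 transcript bases (Spearman rho -0.569 over 7977 genes, a description across genes that are not independent). The GC content there is 40% for Cd226, 43.2% for Crtam, 45% for Cd96 and 51.7% for Tigit. In that order, 26.9%, 41%, 48.9% and 77.3% of the tested genes have less. Crtam, close to Cd226 in GC content, had a side difference of the other sign. The part of the split in the Cd226 values was not tested further.

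Crtam showed another order, low in healthy spleens and with overlapping values in the other groups. The healthy spleens had 20.0, 28.9 and 26.4 CPM. Tumour-bearing spleens had 37.4, 39.6, 49.9 and 49.2 CPM, and tumour libraries 49.2, 47.8, 39.7 and 48.5 CPM. Every library from a mouse with a tumour was above every healthy library, and the tumour and tumour-bearing spleen libraries overlapped.

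Crtam averaged 25.1 ± 4.57 (SD, n = 3), 44.02 ± 6.46 (SD, n = 4) and 46.3 ± 4.44 (SD, n = 4) CPM in healthy spleen, tumour-bearing spleen and tumour. Tumour NK cells exceeded healthy spleens 1.77-fold (log2 0.82, SE 0.206, edgeR adjusted p = 0.00474). Tumour-bearing spleens had a fitted value 1.7-fold that of healthy spleens, which did not pass (log2 0.76, SE 0.201, 95% interval 0.345 to 1.18, edgeR adjusted p = 0.0633). With the side of the split as a block among spleens the same comparison passed (log2 0.86, edgeR adjusted p = 0.00238). The split was read from these same values and no label names it, so this call is not separate support. The tumour and tumour-bearing spleens differed by log2 0.06, with a 95% interval of -0.302 to 0.422 (edgeR adjusted p = 0.871), and this value was below 0 with upper-quartile scaling and with library totals only.

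Counted over the 4 receptors, 2 were called higher in tumour than in tumour-bearing spleen (Tigit and Cd96) and none lower, where 15.8% of the 8471 genes tested were called higher and 13.2% lower (29% in either direction). In the same comparison 3 of 4 lay wholly above the spleens (Tigit, Cd96 and Cd226), as 16.5% of genes did (29.7% above or below). Against healthy spleens 3 of 4 were called higher (Tigit, Cd96 and Crtam), with 16.5% of genes called higher, 14% lower and 30.5% in either direction. The same 3 receptors lay wholly above the healthy spleens, as 18.5% of genes did (34.8% above or below). Tumour-bearing against healthy spleen gave 1 of 4 called higher (Tigit), with 1.23% of genes called higher and 1.58% in either direction. There 2 of 4 lay wholly above (Tigit and Crtam), as 6.52% of genes did (12.2% above or below). Over all genes tested the median log2 difference was 0.0014, 0.0164 and -0.00415 in these comparisons, which share groups with each other. The innate lymphoid marker genes given above were higher in tumour libraries too (6 of 8 tested were called against either spleen group, none between the spleens), and their part in the receptor values was not tested.

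**Figure D2:**
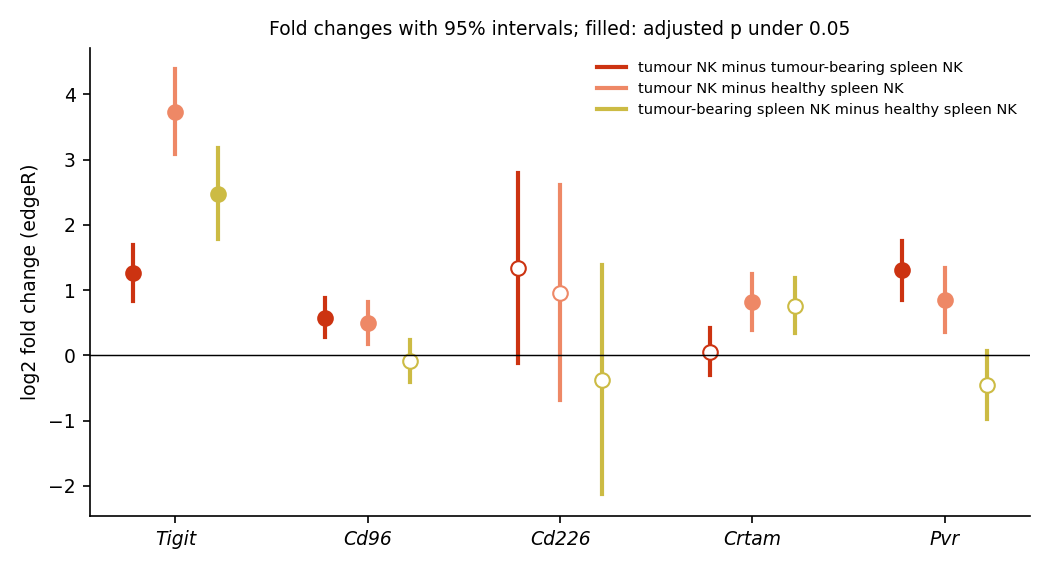
Log2 fold change (vertical axis) of the 4 receptors and Pvr in the 3 comparisons of NK groups, with 95% intervals from edgeR; filled points have an adjusted p under 0.05. All 3 Tigit points are filled, from 1.26 to 3.74, both tumour comparisons of Cd96 and Pvr are filled, Crtam has 1 filled point, and the open Cd226 points have the widest intervals.

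Ratios of counts within a library do not depend on how libraries are scaled. The counts come from the 3′ ends of transcripts, so they do not grow with transcript length, and each ratio is followed across groups only. Tigit counts per Cd96 count were 0.0326 to 0.0588 in healthy spleens, 0.198 to 0.339 in tumour-bearing spleens and 0.332 to 0.475 in the tumour. The healthy range stood apart, and the other ranges overlapped through tumour replicate 3 and tumour-bearing replicate 4. Tigit per Crtam was 0.0938 to 0.308, 0.451 to 0.592 and 1.06 to 1.3 in the same order, with no overlap between any of the groups. In healthy spleens there were thus fewer Tigit than Crtam counts in each library, and in each tumour library more.

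The ratio of the inhibitory receptor to the activating one, Tigit to Cd226, was 0.154 to 0.889 in healthy spleens. It was 1.07 to 18.5 (median 2.3) in tumour-bearing spleens and 1.3 to 2.66 (median 2.12) in the tumour. Every healthy library had fewer Tigit than Cd226 counts and every other NK library had more, while tumour and tumour-bearing spleen overlapped. That order was within counting error in healthy replicate 2 (8 Tigit and 9 Cd226 counts). The same held for tumour-bearing replicates 1 (29 and 27 counts) and 2 (32 and 29 counts). The highest value, 18.5, came from tumour-bearing replicate 4, which had only 2 Cd226 counts. Cd96 to Cd226 was 2.62 to 21.1, 4.7 to 54.5 and 3.59 to 6.24, and Crtam to Cd226 was 0.5 to 6, 1.81 to 34 and 1.22 to 2.07, so these ranges overlapped between all groups. The spleen ratios to Cd226 followed the split described for that gene. Ratios to Cd96 and Crtam were added after the levels had been seen.

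The ligands were read in the sCAF libraries, whose label was first checked on marker genes. All 12 fibroblast genes searched were listed and summed to 2710 to 3180 CPM on library totals, of which S100a4 gave 2650, 2220 and 1390 CPM in replicates 1 to 3. The collagen gene Col1a1 had 46.2 to 81.8 CPM and Col1a2 178 to 414 CPM, and Pdpn, against which the cells were sorted, 2 to 5 counts. Fap had 1 to 3 counts, Lum 1 to 2 and Acta2 4 to 7, so these fibroblast genes were listed but near the floor. Col3a1, Dcn, Pdgfra, Pdgfrb and Thy1 lay between 39.9 and 264 CPM. The epithelial genes (9 of 9 listed) summed to 3280 to 4140 CPM. The keratin genes Krt18, with 2250 to 2990 CPM, and Krt8, with 691 to 826 CPM, were above these collagens. Krt19, with 19.7 to 43.5 CPM, and Krt14, with 8.97 to 37.2 CPM, were below them, and Krt5 was at 0. Epcam, another gene used as a negative gate, had 5.83 to 27.3 CPM. Cldn4, with 107 to 268 CPM, was above Col1a1, while Cdh1 had 8.52 to 40.2 CPM and Cldn7 0.751 to 5.31 CPM. Pericyte genes summed to 30.9 to 302 CPM, macrophage genes to 48.6 to 90.1 CPM and endothelial genes to 1.35 to 4.55 CPM. Fibroblast and epithelial markers were thus both present, and which cells carried the ligand counts was not tested.

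Pvr, the ligand with which TIGIT, CD226 and mouse CD96 all pair, had 165, 156 and 198 CPM in sCAF replicates 1 to 3, from 367, 206 and 263 counts. Its mean was 173 ± 21.8 CPM (SD, n = 3), a coefficient of variation of 12.6%. A lower mean CPM was found for 91.3% of the genes listed for these cells, a place among 3′ end counts. Replicate 3 was the highest, and its 95% counting interval overlapped that of the other replicates.

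Nectin2, the second ligand of CD226 and TIGIT, had 66.8, 85.7 and 116 CPM in the same libraries, from 149, 113 and 155 counts. Its mean was 89.6 ± 25 CPM (SD, n = 3), above that of 82.1% of the listed genes. Its coefficient of variation, 27.9%, was larger than in 87.6% of the 200 genes nearest to it in level, against 38.8% for Pvr among its own neighbours. Replicate 3 was again the highest, and its level lay above the counting intervals of replicates 1 and 2. Nectin2 counts were 0.406, 0.549 and 0.589 times the Pvr counts in the 3 libraries, so Pvr had more 3′ end counts in each. There is no control group for the sCAF libraries, so neither level was tested.

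Of 8 relatives searched, 5 were listed in the sCAF table. Nectin1, a nectin of epithelial and neural adhesion, had 27.8 ± 8.38 CPM (SD, n = 3), from 45, 35 and 49 counts. Nectin3, which encodes a protein that pairs with NECTIN1 and NECTIN2 across cell contacts, had 5.81 ± 1.62 CPM from 17, 7 and 6 counts. Cadm4 had 9.32 ± 6.88 CPM, highest in replicate 3 with 17.3 CPM. Nectin4 had 2 counts in all and Cadm3 had 1, which is under the floor of 3 counts. Cadm1, the CRTAM ligand, was not listed in the sCAF table, and neither were Cadm2 and Pvrig, nor the 4 receptors, so no value is given for them.

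**Figure D3:**
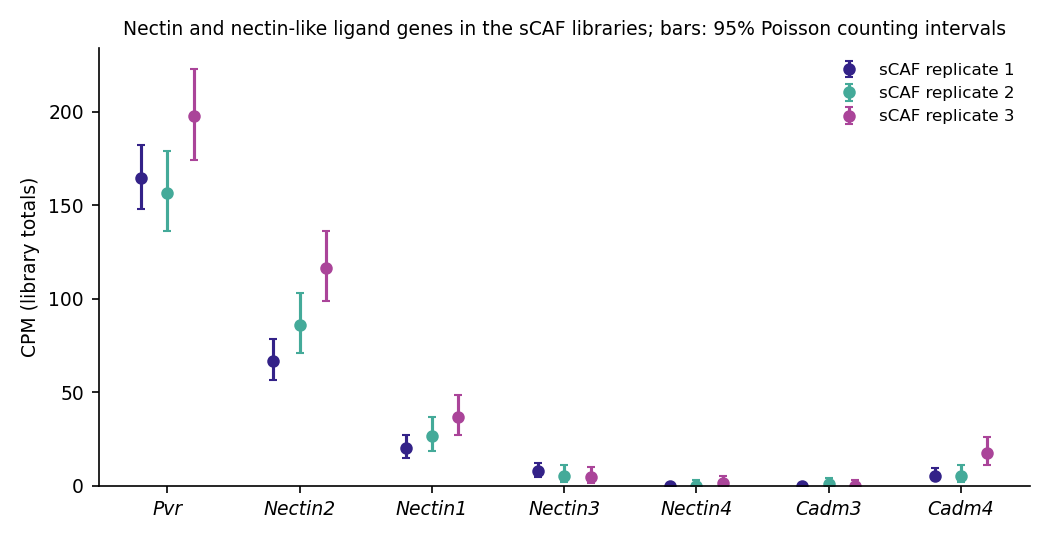
CPM on library totals (vertical axis, linear) of the nectin and nectin-like genes listed in the sCAF table, 1 point for each of the 3 sCAF replicates with its 95% Poisson counting interval. Pvr sits at 156 to 198 CPM and Nectin2 at 66.8 to 116 CPM, above Nectin1 and the near-zero Nectin4 and Cadm3, with replicate 3 highest for Pvr, Nectin2, Nectin1 and Cadm4.

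Pvr was listed in the NK table as well, while Nectin2 and the 8 relatives were not. In NK libraries Pvr had 15.4, 19.3 and 15.7 CPM in healthy spleens, 13.0, 15.1, 10.3 and 11.6 CPM in tumour-bearing spleens, and 27.1, 36.2, 31.9 and 29.5 CPM in the tumour. Each tumour library was above each spleen library. Group means were 16.8 ± 2.15 (SD, n = 3), 12.5 ± 2.04 (SD, n = 4) and 31.2 ± 3.91 (SD, n = 4) CPM.

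The Pvr level in tumour NK libraries was 2.47-fold that of tumour-bearing spleens (log2 1.30, SE 0.217, edgeR adjusted p = 0.000131) and 1.8-fold that of healthy spleens (log2 0.85, SE 0.237, edgeR adjusted p = 0.0104). Between the spleen groups the log2 difference was -0.46 (edgeR adjusted p = 0.531). Without healthy replicate 3 the adjusted p against healthy spleens was 0.0506. Of the epithelial list 2 of 9 genes were listed, and Krt8, Krt18, Krt14, Krt5, Krt19, Cldn4 and Cldn7 were not. Both listed genes, Epcam at 1.09 to 6.85 CPM and Cdh1 at 23.9 to 44.9 CPM in the tumour, were also highest in the tumour NK libraries. The fibroblast list (4 of 12 listed: Col1a2, Col3a1, Thy1 and S100a4) summed to 1370 to 2020 CPM in the tumour, 914 to 1100 CPM in tumour-bearing and 457 to 684 CPM in healthy spleens. All 3 of its genes tested were called higher in tumour than in tumour-bearing spleen (median log2 0.958). Nearly all of that sum came from Thy1 and S100a4, and Col1a2 had 2 to 18 counts in tumour libraries and 3 to 14 in tumour-bearing spleens. The macrophage list (8 of 10 listed) went the other way as a sum, with 370 to 446 CPM in the tumour against 480 to 788 CPM in the spleens. Most of that sum came from Itgam, at 159 to 212 CPM in the tumour against 284 to 542 CPM in the spleens, and Fcgr3, at 137 to 167 CPM against 121 to 247 CPM. The other listed genes reached their highest values in the tumour. Lyz2 was at 3.8 to 36.4 CPM against at most 4.58 CPM, and C1qa at 0.871 to 21.2 CPM against at most 0.777 CPM. Csf1r, C1qb and C1qc ran from 0 to 6.53, 21.8 and 11.4 CPM in the tumour, against at most 0, 1.53 and 0.563 CPM. Cd68 overlapped, at 14.8 to 23.9 CPM against 5.36 to 20.2 CPM. The part of these cell types in the Pvr level was not tested.

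The receptors signal through a small set of phosphatases, kinases and adaptors, and CD226 works together with the integrin LFA-1 (Itgal and Itgb2). Of a list of 23 such genes, 22 were in the NK table and 21 could be tested. Between tumour and tumour-bearing spleen 2 were called higher, 6 lower and 13 not called, where 15.8% of all genes tested were called higher and 13.2% lower. The median log2 difference was -0.111 against 0.0014 over all genes. Against healthy spleens 2 were higher, 4 lower and 15 not called, beside 16.5% and 14% of all genes (median -0.117, all genes 0.0164). Between the spleens 1 was higher and none lower, beside 1.23% and 0.354% of all genes (median 0.0145, all genes -0.00415). The counts against healthy spleens were near the shares over all genes. None of these calls passed against a minimum of 2-fold, and neither did those of Pvr (edgeR adjusted p = 0.388 against tumour-bearing and 1 against healthy spleens).

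The LFA-1 beta chain gene Itgb2 fell furthest of this list, from 1569 ± 107 CPM in tumour-bearing spleens (SD, n = 4) and 1531 ± 49.9 CPM in healthy spleens (SD, n = 3) to 801 ± 27.8 CPM in the tumour (SD, n = 4). Its log2 differences were -0.97 (edgeR adjusted p = 8.59e-06) and -0.93 (adjusted p = 2.74e-05). The alpha chain gene Itgal was lower in the tumour than in tumour-bearing spleens (log2 -0.50, edgeR adjusted p = 0.0155) and was not called against healthy spleens (log2 -0.26). Itgb2 also encodes the beta chain of other leukocyte integrins.

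Among enzymes that act at inhibitory tyrosine motifs, Inpp5d (SHIP1, a lipid phosphatase that TIGIT recruits) was higher in the tumour, at 247 ± 20.8 CPM (SD, n = 4) against 173 ± 14 CPM in tumour-bearing spleens (SD, n = 4) and 152 ± 6.83 CPM in healthy spleens (SD, n = 3). The log2 differences were 0.51 (edgeR adjusted p = 0.00336) and 0.69 (adjusted p = 0.000556). Ptpn6, which encodes the tyrosine phosphatase SHP-1, was highest in tumour-bearing spleens: 288 ± 31.5, 470 ± 48.3 and 336 ± 14.6 CPM in healthy spleen, tumour-bearing spleen and tumour. It was 0.70 higher on the log2 scale in tumour-bearing than in healthy spleens (edgeR adjusted p = 0.00913) and 0.49 lower in the tumour than in tumour-bearing spleens (log2 -0.49, edgeR adjusted p = 0.00648). Without healthy replicate 2 the call between the spleens was lost (adjusted p = 0.093).

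Foxo1, a transcription factor that CD226 signals inactivate, was higher in the tumour than in tumour-bearing spleens (log2 0.70, edgeR adjusted p = 0.000661). It was not called against healthy spleens (log2 0.35, edgeR adjusted p = 0.0881). Cblb, a ubiquitin ligase that restrains NK cells, was higher in the tumour than in healthy spleens (log2 1.34, edgeR adjusted p = 0.000721). Against tumour-bearing spleens Cblb was not called (log2 0.50, edgeR adjusted p = 0.0926). Against healthy replicate 1 alone its log2 difference was 0.70 (adjusted p = 0.26), with the spread taken from the other libraries. The kinase genes Csk and Lck and the scaffold gene Arrb2, which encodes a TIGIT partner, were lower in the tumour than in tumour-bearing spleens, by log2 -0.58, -0.46 and -0.49 (edgeR adjusted p = 0.00532, 0.018 and 0.026). Csk and Arrb2 were lower against healthy spleens too, both by log2 -0.60, and so was the polarity gene Scrib (log2 -0.47, edgeR adjusted p = 0.0329). Set against tumour-bearing replicates 1 and 2 alone, Arrb2, Csk, Itgal, Lck and Ptpn6 kept their sign but lost their calls (adjusted p = 0.124, 0.0794, 0.112, 0.224 and 0.084). Several of these calls also rested on single libraries. Against healthy spleens Arrb2 was lost without healthy replicate 3 (adjusted p = 0.0901). Scrib was lost without healthy replicate 2 or 3 or tumour replicate 1 or 4 (adjusted p = 0.149, 0.096, 0.0751 and 0.0861). Against tumour-bearing spleens Arrb2 was lost without tumour-bearing replicate 4 or tumour replicate 1 or 2 (adjusted p = 0.0661, 0.0635 and 0.0993). Lck was lost without tumour-bearing replicate 3 or tumour replicate 1 (adjusted p = 0.0678 and 0.0542), and Itgal without tumour replicate 2 (adjusted p = 0.0587).

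**Figure D4:**
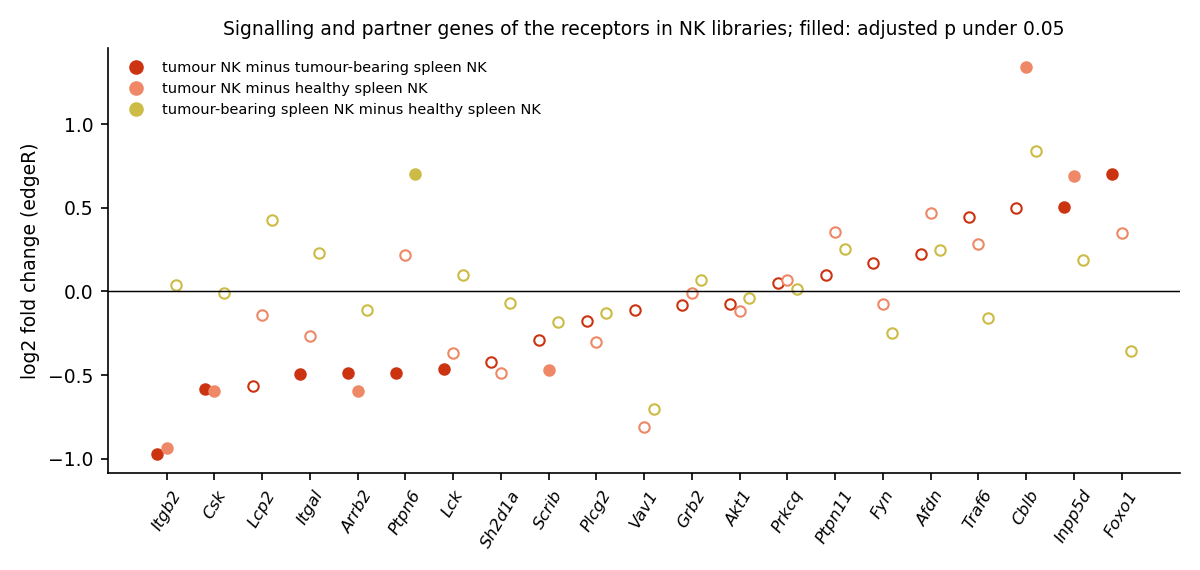
Log2 fold change (vertical axis) of the 21 tested signalling and partner genes of the receptors in the 3 comparisons of NK groups; filled points have an edgeR adjusted p under 0.05. Itgb2 is lowest in both tumour comparisons (-0.97 and -0.93), Cblb is highest against healthy spleens (1.34), and Ptpn6 has the only filled point between the spleens (0.70).

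The genes whose levels ran most like a receptor over the 11 NK libraries were found by Pearson's r of log2 CPM, given as a description because the libraries share groups. For Tigit they were Gzmb (r = 0.98), Spp1 (0.97), Bcl2a1b (0.966), Tnfrsf9 (0.965) and Plk3 (0.965). Gzmb, the gene of the cytotoxic protease granzyme B, had means of 447, 1140 and 2130 CPM in healthy spleen, tumour-bearing spleen and tumour. Tnfrsf9, the gene of the costimulatory receptor 4-1BB, had 27, 103 and 306 CPM. Both followed the order of the Tigit groups, but they were picked for likeness to Tigit, so this order is not separate support.

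For Cd96 the nearest genes were Pop4 (r = 0.971), Gpn3 (0.964), Btg1 (0.956), Klf4 (0.955) and Rtca (0.953). Each was higher in the tumour mean than in both spleen means, which likewise goes with the way they were picked. Klf4, a transcription factor gene, had 18, 14 and 185 CPM. For Crtam they were Hsp90ab1 (0.961), Pdia6 (0.95), Nucb1 (0.946), Ech1 (0.944) and Atp5g3 (0.932). Hsp90ab1, a chaperone gene, had 420 CPM in healthy spleens, 959 in tumour-bearing spleens and 888 in the tumour. The Cd226 list was Mllt3 (0.967), Zfp51 (0.965), Kremen1 (0.952), Copb1 (0.95) and Nr1d2 (0.949). Among the members, r over the same libraries was 0.852 between Tigit and Crtam, 0.642 between Tigit and Cd96, 0.876 between Cd96 and Pvr, and -0.154 between Cd226 and Crtam.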

How the data were processed

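The authors deposited raw counts per gene in 2 tables, of 10210 genes for NK and 12235 for sCAF libraries, made from 3′ end polyA libraries per the labels' protocols. The submitters' processing notes name bcl2fastq, STAR 2.4.2a, HTSeq and mm10. Each header joins a pair of sample names, which were assigned by position. The 11 NK libraries were fitted together with edgeR 4.0.16 in R 4.3.3 (TMM scaling, filterByExpr, robust quasi-likelihood), and Benjamini-Hochberg adjustment ran over the 8471 genes kept, with 0.05 as the threshold. All 4 receptors and Pvr passed the filter. sCAF values are CPM on library totals with exact Poisson intervals. The script was tested on simulated data. Alternatives included DESeq2 1.42.0 and limma 3.58.1 (voom), other scalings, no filter, a replicate block and leaving out each library. All replicate pairs differed by more than sampling noise. The labels call replicates independent without naming animals, so p-values measure the spread between these samples, which may be technical in part. The 6 members were always named. Relatives were named where listed, signalling genes where called, and likeness was the 5 highest Pearson r (prior count 2). The members and lists were chosen with earlier results of these data known.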

Additional observations from a re-analysis of the deposited data

Results flagged for a closer look

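Crtam in tumour replicate 3 stood at 39.7 CPM, apart from the other tumour NK libraries at 47.8 to 49.2 CPM, by a gap large against the range of the group. Of 10 groups of 4 libraries examined this was the single one with such a library, and chance gives about 1 in 20 groups.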

How the results depend on the processing

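Over 21 or 22 alternatives per comparison, Tigit kept its call in all but 1: tumour against tumour-bearing spleen with a 2-fold minimum (log2 1.26, adjusted p = 0.479). That minimum also ended the calls of Cd96 (0.58 and 0.50) and of Crtam against healthy spleen (0.82), both Pvr calls and every signalling gene call. Cd96 against healthy spleen lost its call with upper-quartile scaling (0.40), library totals only (0.29) and only the groups compared (0.45), and against tumour-bearing replicates 1 and 2 only the first comparison gave 0.50. Cd226 gained a call against tumour-bearing spleen with limma voom (1.77), only the groups compared (1.32) and tumour-bearing replicates 3 and 4 only (2.55), and against healthy spleen with voom (1.62) and healthy replicates 2 and 3 only (2.01). It reversed between the spleens without healthy replicate 1 (0.69). Against healthy replicate 1 only, Cd226 was at -0.47 and Cd96 at 0.35; this arm of 1 library is assumed to vary like the other groups, and its lost calls say little of stability. Without that library tumour against tumour-bearing spleen also passed for Cd226 (1.31, adjusted p = 0.0393). Crtam between tumour and tumour-bearing spleen reversed with upper-quartile scaling (-0.04), library totals only (-0.06), replicates 3 and 4 only (-0.15) and without tumour-bearing replicate 1 (-0.04), and between the spleens it gained a call with the side of the split as a block (0.86). The sides of the split were read from these same values, so calls that rest on them are not separate support. The cause of these changes was not tested.

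Leaving out 1 library at a time gave, for tumour against tumour-bearing spleen, 1.15 to 1.37 (Tigit), 0.51 to 0.63 (Cd96), 1.00 to 1.69 (Cd226) and -0.04 to 0.12 (Crtam). For tumour against healthy spleen it gave 3.49 to 3.90, 0.36 to 0.57, 0.35 to 2.01 and 0.70 to 0.95, and between the spleens 2.23 to 2.67, -0.22 to -0.01, -0.99 to 0.69 and 0.67 to 0.89, in the same order of genes. The sCAF means were 172.5 to 188.2 CPM for Pvr and 89.3 to 97.7 CPM for Nectin2 under other scalings, and 160.4 to 181 and 76.3 to 101 CPM with 1 library left out.

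Same-numbered tumour and tumour-bearing libraries did not all deviate together (r = -0.0471, 0.288, 0.00249 and 0.211). This check cannot settle whether they shared mice, because the spleen deviations also carry the split. The main fit takes no pairs, since none are given. With the replicate number as a block the receptors kept their calls, for example Cd96 at 0.58 (adjusted p = 0.0021) and Cd226 at 1.45 (adjusted p = 0.158) between tumour and tumour-bearing spleen. Depth limits Tigit in healthy spleens (3 to 8 counts) and Cd226 in spleens (2 to 29 counts).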
